A study of Homo sapiens with 7 samples.

Results

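The genes described here are 10 components of the switch that commits a cell to leave G1: the D-type cyclins CCND1, CCND2 and CCND3, their kinases CDK4 and CDK6, the inhibitors CDKN2A, CDKN2B, CDKN2C and CDKN1B, and the retinoblastoma gene RB1. They were taken by gene name from the array annotation, and together they had 47 of the 58717 non-control spots, 12 of the 42405 probes and 10 of the 34809 gene names. CCND2 headed the list because it was chosen by its measured difference between the groups: it was among the 7 probes that were lower in HOTAIR-overexpressing cells at an adjusted p under 0.05, so its own difference is given below as a description, and the other 9 genes were added as its partners in the pathway. The cells were ACHN, a human renal cell adenocarcinoma line. In the EV group, 4 samples carried the empty pBabe-hygro retroviral vector, and in the HOTAIR group, 3 samples carried the same vector with human HOTAIR cDNA, a long non-coding RNA. All the cells had been infected with retrovirus made in Plat-A packaging cells and selected with hygromycin, and the sources used here do not say whether they were clones or pools, or whether the samples of a group came from separate infections or cultures. Each sample was hybridised to 1 single-colour array, and p-values below measure only the spread between these samples, which may be technical.

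D-type cyclins are made in response to growth signals and bind CDK4 or CDK6, and the active kinases phosphorylate the retinoblastoma protein, which otherwise holds E2F transcription factors in check. The INK4 proteins encoded by CDKN2A, CDKN2B and CDKN2C bind CDK4 and CDK6 and keep them from pairing with a D cyclin, whereas the p27 protein encoded by CDKN1B inhibits CDK2 complexes and is also carried by cyclin D complexes. The D cyclins share this activity but differ between tissues in which of them is made, and loss of CDKN2A is common in cancer cell lines.

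The probes are 60 bases long and their coordinates are those of the array annotation on hg19. The first 30 bases are given for the CCND2 probe, on which the largest difference of the set rests, and for the probes of CDKN1B and CDKN2A, the genes with a pair of probes. The CCND2 probe, A_24_P278747, spans bases 4414040 to 4414099 of chromosome 12, plus strand. Both CDKN1B probes lie on the plus strand of the same chromosome, the downstream one from 12874940 to 12874999 and the upstream one from 12871119 to 12871178. The CDKN2A probes lie on the minus strand of chromosome 9, the downstream one from 21968039 to 21968098 and the upstream one from 21970901 to 21970960. Lower case letters run 5′ to 3′ along the transcript, and no base is marked.
CCND2: atcgggccattggattttttccattatgtt
CDKN1B, downstream: agcacacttgtaggataagtgaaatggata
CDKN1B, upstream: gcgcctttaattggggctccggctaactct
CDKN2A, downstream: ttaaaaatgtcctgccttttaacgtagata
CDKN2A, upstream: ctgcggggggcaccagaggcagtaaccatg

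The upstream CDKN2A probe was the most GC-rich of the 12 at 66.7%, against 40% for the downstream one, and the CCND2 probe had 38.3%. The upstream CDKN1B probe had 55% GC and the downstream one 35%. No pair of the 12 probes shared a run of more than 8 bases, and the accessions of all 12 matched the expected gene in the RefSeq table. No annotation on hg19 was used here, so the exon under each probe is not given.

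Before the members, the arrays themselves were compared. The HOTAIR probe stayed near background on the EV arrays (well above it on 0 of 4) and rose above it on all 3 HOTAIR arrays, where it was at least 9.32-fold higher. The EV mean in this bound was taken at the lowest signal of any probe well above background, where the HOTAIR probe lay under it. The limma fit used the values as measured, without this floor, and gave an adjusted p of 0.00162. Between 48.7% and 52.1% of the probes were well above background on an array, and the 75th percentile of the intensity was 523 to 649. The first principal component held 51.8% of the variance and set EV 2 apart, with a score of 74.0 against -18.1 to -8.50 for the other EV arrays, and HOTAIR 3 lay on the same side at 21.1 against -29.4 and -21.3. All 7 arrays shared 1 slide on which each group filled a row of its own, so the effect of the row cannot be told apart from that of HOTAIR. All 7 markers of a renal epithelial line were well above background on all 7 arrays (PAX8, PAX2, KRT8, KRT18, VIM, MET and CDH2), and their summed linear level was 278 to 361 on the EV arrays and 303 to 314.5 on the HOTAIR arrays. Of the markers of other cells, 1 of 5 leukocyte genes (CD14), 0 of 5 endothelial genes and 1 of 6 fibroblast and muscle genes (DES) were above background on every array, and their summed levels overlapped between the groups.

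CCND2, the gene of cyclin D2, was the member that differed most between the groups. All values of single arrays below are log2 processed intensities minus the array's 75th percentile. CCND2 read -2.01, -2.28, -2.24 and -2.24 on EV 1 to EV 4, and -3.60, -3.63 and -3.10 on HOTAIR 1 to HOTAIR 3. Every HOTAIR array lay under every EV array, and a gap of 0.83 separated the lowest EV value from the highest HOTAIR value. The means were -2.19 ± 0.12 (SD, n = 4) and -3.44 ± 0.29 (SD, n = 3), a difference of -1.25 (SE 0.16, 95% confidence interval -1.62 to -0.88), so that CCND2 was 2.38-fold lower in HOTAIR-overexpressing cells. With normexp background correction in place of the processed intensity the difference was -0.71. In unscaled processed intensity it was 109 to 162 on the EV arrays and 44.9 to 65.2 on the HOTAIR arrays, a dim signal that was well above background on all 7.

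The adjusted p by which CCND2 entered the set was 0.0424 in the limma fit over all 20419 tested probes, and it ranked 30 by p and 7 from the lowest difference. Just inside that threshold lay LOC344887, ST8SIA1 and C10orf99, with adjusted p of 0.0441, 0.0482 and 0.0482 in the limma fit, and just outside it lay PYCARD, SLC16A9 and ADD2, with 0.0546, 0.0585 and 0.0585. Of the 7 probes called lower, CCND2 had the most negative difference. The call was lost with normexp (limma adjusted p = 0.0659), the deposited table (0.122), no filter on dim probes (0.131), trend and robust moderation (0.0646) and the replicate block (0.451). That block groups arrays by number, and EV 4 has no HOTAIR partner, so EV 4 carried no weight in the difference. The call was also lost in 6 of the 7 fits that left out 1 array. The limma adjusted p was 0.17 without EV 1, 0.068 without EV 2, 0.154 without EV 3, 0.123 without EV 4, 0.256 without HOTAIR 1 and 0.236 without HOTAIR 2. Over the 7 fits the difference was -1.42 to -1.16, a description on the contrast that chose the gene.

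The CCND2 probe was printed at 2 places on the array, and the mean of these spots is the value that chose the gene, so they are given only as a description. The first spot read -2.13, -2.24, -2.18 and -2.19 on the EV arrays and -3.63, -3.81 and -3.13 on the HOTAIR arrays. The other spot read -1.89, -2.32, -2.31 and -2.29 on the EV arrays and -3.56, -3.45 and -3.08 on the HOTAIR arrays. At each spot the HOTAIR arrays lay under the EV arrays, and neither spot was marked as an outlier. The SD between the spots of an array was 0.037 to 0.26, with a median of 0.066.

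**Figure D1:**
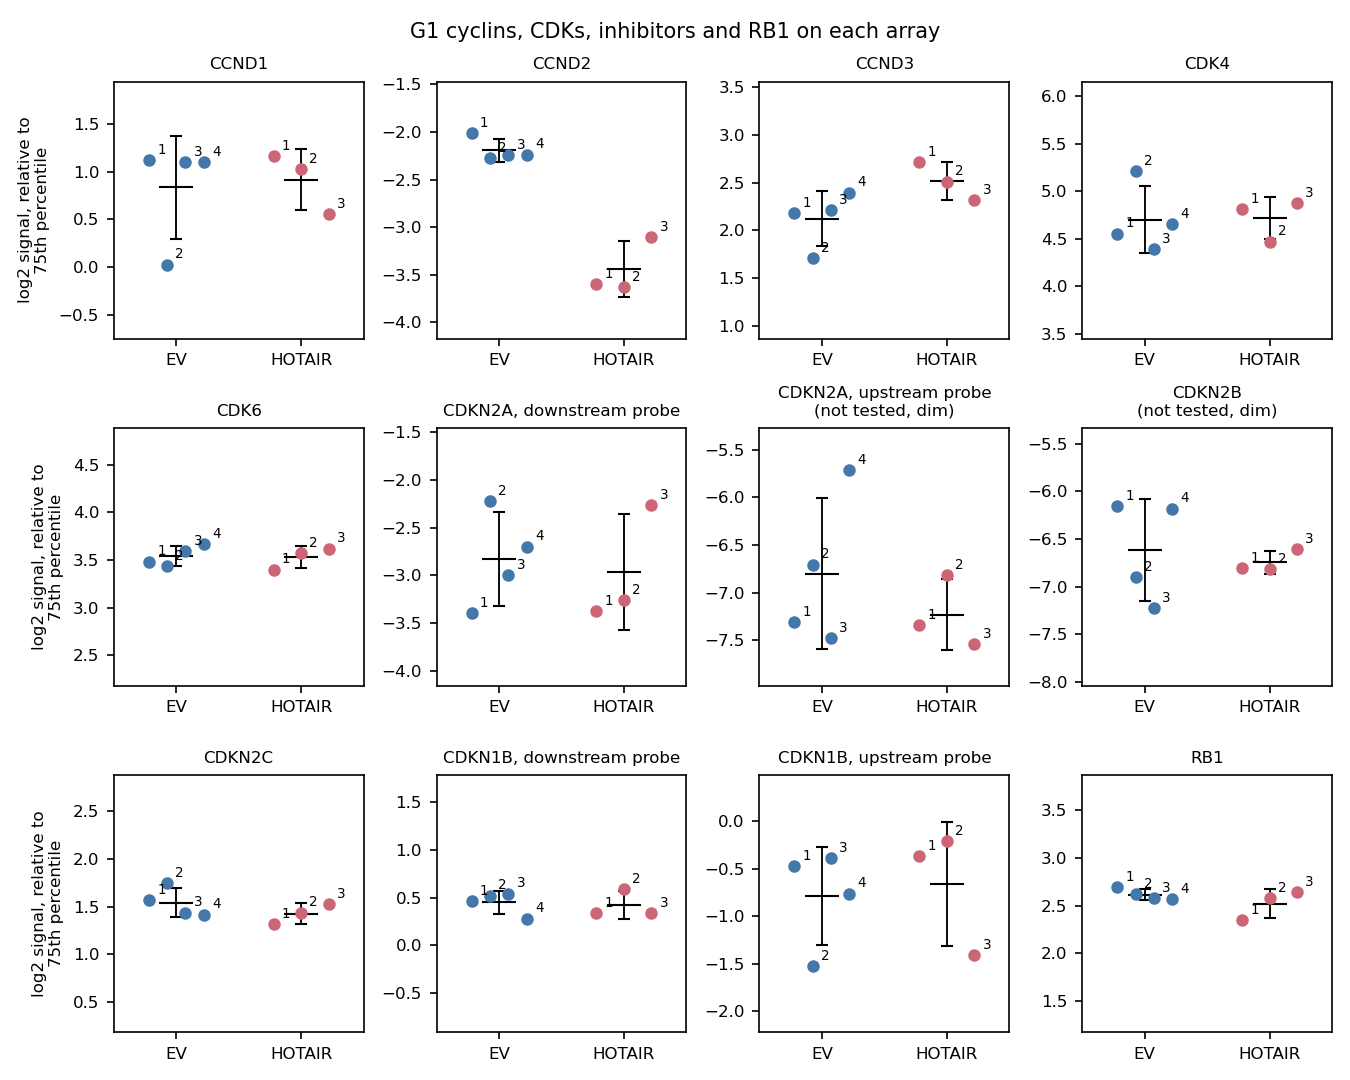
Value of each of the 12 member probes on the 7 arrays, as log2 processed intensity minus the 75th percentile of the array; points are arrays numbered by replicate, and the lines give the group mean ± SD (EV, n = 4; HOTAIR, n = 3). The axes have the same span but not the same position, and CCND2, chosen on this contrast, is the panel in which the groups do not overlap.

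Neither of the other D cyclins was called. CCND1, the D cyclin induced by mitogens in most epithelial cells, read 1.12, 0.024, 1.10 and 1.10 on the EV arrays and 1.17, 1.02 and 0.56 on the HOTAIR arrays. The groups overlapped, and the lowest value was that of EV 2. The means were 0.84 ± 0.54 (SD, n = 4) and 0.92 ± 0.32 (SD, n = 3), with a difference of 0.080 (95% confidence interval -0.62 to 0.78, limma adjusted p = 0.993).

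CCND3, the most widely made of the D cyclins, read 2.18, 1.71, 2.21 and 2.39 on the EV arrays and 2.71, 2.51 and 2.31 on the HOTAIR arrays. Of the HOTAIR arrays, 1 and 2 lay above every EV array and HOTAIR 3 lay within the EV range. The difference of 0.39 (SE 0.18, 95% confidence interval -0.04 to 0.82) was the largest among the other members and did not pass the test (limma adjusted p = 0.906).

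Within each array, the log2 ratio of the CCND2 signal to the CCND3 signal was lower by 1.64 with HOTAIR, as the mean went from -4.31 ± 0.28 (SD, n = 4) to -5.96 ± 0.47 (SD, n = 3). The ratio of CCND2 to CCND1 went from -3.03 ± 0.49 to -4.36 ± 0.61, and it was -3.34 to -2.30 on the EV arrays and -4.76 to -3.66 on the HOTAIR arrays. Neither ratio overlapped between the groups. This follows largely from the CCND2 difference of -1.25 that chose the set, beside differences of 0.080 for CCND1 and 0.39 for CCND3. The ratio of CCND1 to CCND3 was -1.68 to -1.06 on the EV arrays and -1.76 to -1.49 on the HOTAIR arrays, which overlapped.

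Both kinases overlapped between the groups. CDK4 read 4.55, 5.21, 4.39 and 4.65 on the EV arrays and 4.81, 4.47 and 4.87 on the HOTAIR arrays, with EV 2 the highest. Its difference was 0.016 (95% confidence interval -0.48 to 0.51, limma adjusted p = 0.997), and its sign turned under several other settings. CDK6, which like CDK4 is activated by any D cyclin, read 3.48, 3.43, 3.59 and 3.66 on the EV arrays and 3.40, 3.57 and 3.62 on the HOTAIR arrays. Its difference of -0.011 had a narrower interval, from -0.27 to 0.25 (limma adjusted p = 0.996), and its sign turned too.

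**Figure D2:**
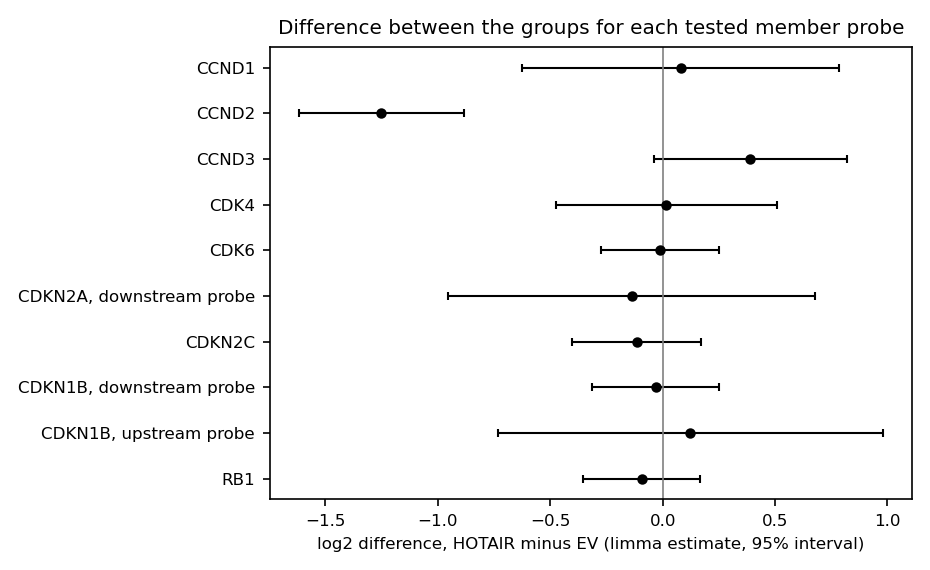
Difference between the groups for each of the 10 tested member probes, on a log2 axis as HOTAIR minus EV; points are limma estimates and bars are 95% confidence intervals. CCND2 lies at -1.25 and was chosen on this contrast, so that its interval excludes 0 is a description only. The intervals of the other 9 probes include 0.

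The INK4 genes gave 3 different pictures. The downstream CDKN2A probe read -3.39, -2.22, -3.0 and -2.70 on the EV arrays and -3.37, -3.26 and -2.26 on the HOTAIR arrays, and every array placed it well above background. EV 2 and HOTAIR 3 were the highest of their groups, and the difference was -0.14 (95% confidence interval -0.95 to 0.68, limma adjusted p = 0.993). The upstream CDKN2A probe was well above background only on EV 4, where its 2 spots read -7.29 and -4.14, so that the reading there came from 1 spot.

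CDKN2B, the neighbour of CDKN2A that encodes p15, was well above background on 0 of 7 arrays. Its values were -6.15, -6.90, -7.23 and -6.18 on the EV arrays and -6.80, -6.82 and -6.60 on the HOTAIR arrays, and no fold is given because both groups lay at background. CDKN2C, which encodes p18, was well measured, with 1.57, 1.75, 1.44 and 1.42 on the EV arrays and 1.32, 1.44 and 1.53 on the HOTAIR arrays. Its groups overlapped, with means of 1.54 ± 0.15 (SD, n = 4) and 1.43 ± 0.11 (SD, n = 3) and a difference of -0.11 (95% confidence interval -0.40 to 0.17, limma adjusted p = 0.993).

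CDKN1B was measured by a downstream probe printed 10 times and an upstream probe printed once, whose starts are 3821 bases apart. The downstream probe read 0.46, 0.52, 0.54 and 0.28 on the EV arrays and 0.34, 0.59 and 0.34 on the HOTAIR arrays, a difference of -0.031 (95% confidence interval -0.31 to 0.25, limma adjusted p = 0.993). The upstream probe read -0.48, -1.52, -0.39 and -0.76 on the EV arrays and -0.37, -0.22 and -1.41 on the HOTAIR arrays, a difference of 0.12 (95% confidence interval -0.73 to 0.98, limma adjusted p = 0.993). The groups overlapped at both probes. The log2 ratio of upstream to downstream signal was -2.04 on EV 2 and -1.75 on HOTAIR 3, against -1.04 to -0.70 on the other 5 arrays.

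RB1, the substrate of the cyclin D kinases, varied least between the EV arrays of all the members. It read 2.69, 2.62, 2.58 and 2.57 on the EV arrays and 2.35, 2.58 and 2.64 on the HOTAIR arrays. The means were 2.62 ± 0.056 (SD, n = 4) and 2.52 ± 0.15 (SD, n = 3), and the difference of -0.093 (95% confidence interval -0.35 to 0.17) did not pass the test (limma adjusted p = 0.993).

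In all, 9 of the 10 genes could be tested, by 10 of the 12 probes, and CDKN2B could not. Of these 9, CCND2 was called and 8 were not, beside 0.167% of all tested probes called in either direction (0.0343% lower and 0.132% higher); the choice of CCND2 on this contrast fixes that count. The differences of the other 8 genes ranged from -0.14 to 0.39 with a median of -0.021, and their adjusted p in the limma fit ranged from 0.906 to 0.997. None of the 8 had groups that did not overlap, beside 7.7% of all tested probes that did (3.5% lower and 4.2% higher). With 8 genes, a count of 0 is not a difference from that share. Over all 9 tested members the median was -0.031, and over all tested genes it was 0.011. The intervals of the 8 genes, which reach -0.95 and 0.82 at their widest, do not show that these genes were equal between the groups.

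For the probes printed 10 times, the SD of single spots within an array can be set beside the SD of the array means, which average the spots. The SD between the spots of CCND1 within an array was 0.059 to 0.095, and the SD of its means between the EV arrays was 0.54. For the downstream CDKN1B probe the corresponding values were 0.047 to 0.11 and 0.12, and for RB1 they were 0.044 to 0.081 and 0.056.

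Much of the spread lay in EV 2 and HOTAIR 3, the arrays that stood apart. Against the mean of the other arrays of the group, CCND1 was -1.08 on EV 2 and -0.54 on HOTAIR 3, and CCND3 was -0.56 and -0.30. CDK4 was 0.68 on EV 2 and 0.23 on HOTAIR 3, the downstream CDKN2A probe was 0.81 and 1.06, and the upstream CDKN1B probe was -0.98 and -1.12. These 5 probes had the same sign on both arrays, as did 7 of the 10 tested member probes (70%) and 73.2% of all tested probes. CCND2 was -0.11 on EV 2 and 0.51 on HOTAIR 3, which do not share a sign, and RB1 was 0.0039 and 0.18.

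Without EV 2 and HOTAIR 3, the CCND2 difference was -1.45, given as a description on the contrast that chose it. Over the same 5 arrays, CCND3 differed by 0.35, CCND1 by -0.011, CDK4 by 0.11, CDK6 by -0.092, CDKN2A by -0.29, CDKN2C by -0.098, CDKN1B by 0.035 and RB1 by -0.15. None of these 8 genes passed the test there, with the lowest adjusted p, 0.522, at CCND3 in the limma fit.

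**Figure D3:**
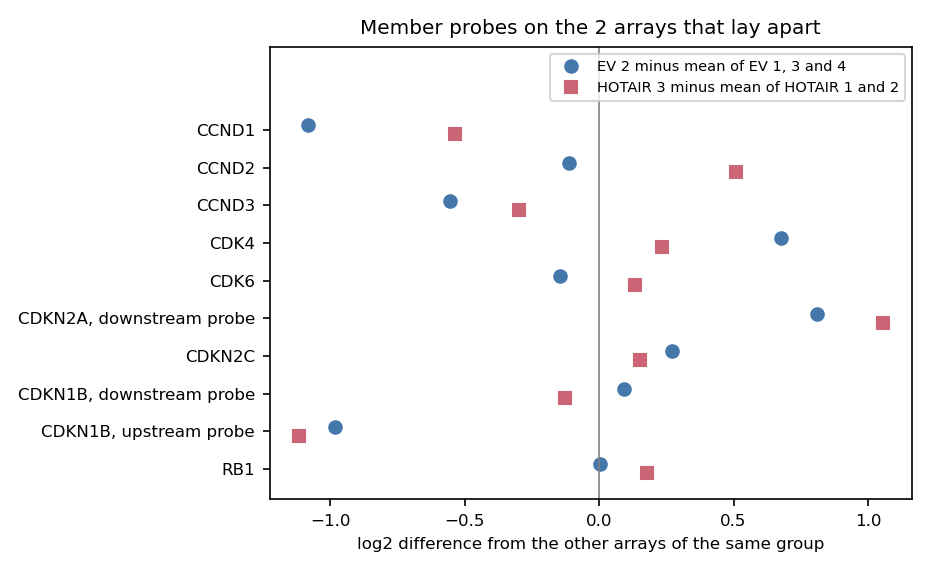
Distance of EV 2 from the mean of the other EV arrays (circles) and of HOTAIR 3 from the mean of the other HOTAIR arrays (squares), in log2 units, for the 10 tested member probes. CCND1, CCND3 and the upstream CDKN1B probe lie under 0 on both arrays, and CDK4, the downstream CDKN2A probe and CDKN2C lie above it on both.

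The wider G1 to S pathway was described from 67 further genes in 8 lists, of which 64 were tested and TFDP3, MYCN and FOXO4 were too dim to be tested. None of the 64 passed the adjusted p in the limma fit, and at an unadjusted p under 0.05 there were 2 lower (CRYAB and TOP2A) and 0 higher, beside 5.85% of all tested probes in either direction. The signs were evenly divided, with 32 lower and 32 higher, and the median difference was -0.00021. The groups did not overlap for 5 of the 64, or 7.81%, beside 7.7% of all tested probes. All 5 were lower with HOTAIR, and 3.5% of all tested probes did not overlap and were lower.

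By role, and among tested genes, the other CDK inhibitors had the smallest differences of the 8 lists. CDKN1A, which encodes p21, differed by 0.0062, and CDKN2D, the remaining INK4 gene, differed by 0.04, the largest of its list of 3. The other pocket proteins, which bind E2F factors as RB1 does, both read lower, RBL2 by -0.26 and RBL1 by -0.22. RBL2 overlapped between the groups (limma adjusted p = 0.993). RBL1 was -0.94 to -0.75 on the EV arrays and -1.12 to -1.02 on the HOTAIR arrays, without overlap (limma adjusted p = 0.9). The 10 E2F and DP factors tested had a median of 0.011, from -0.23 to 0.26 at E2F2, and E2F1 differed by 0.087. Among cyclins E and A with CDK2 the largest difference was 0.30 at the dim CCNA1 probe. CCNA1 was well above background on 2 of 4 EV arrays and on all 3 HOTAIR arrays, so only the HOTAIR group let it be tested. Its groups overlapped (limma adjusted p = 0.993). CCNE1, which E2F factors induce, differed by 0.11. All 3 subunits of the CDK-activating kinase read lower, with CDK7, its catalytic subunit, at -0.19.

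Of the 11 genes that act in the turnover of D cyclins and p27, CRYAB had the largest difference. It encodes αB-crystallin, a small heat shock protein that works with FBXO4 in the destruction of cyclin D1. It read 1.58, 1.96, 1.58 and 1.68 on the EV arrays and 1.32, 1.30 and 1.10 on the HOTAIR arrays, and the groups did not overlap. The difference was -0.46, which did not pass the test (limma adjusted p = 0.525). FBXO4 itself differed by -0.17, and SKP2, which marks p27 for destruction, differed by -0.15.

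Among the 14 tested transcription factors that act on D cyclin genes, FOS had the largest difference, 0.46, and it overlapped between the groups (limma adjusted p = 0.979). FOXO4, above background on 1 of 4 EV arrays and no HOTAIR array and so not tested, was -6.22 to -5.63 on the EV arrays and -6.81 to -6.47 on the HOTAIR arrays. MYC differed by -0.086 and JUN by 0.042. The 15 S phase genes under E2F control had a median of -0.015. TOP2A, which untangles DNA, was 1.62 to 1.89 on the EV arrays and 1.38 to 1.60 on the HOTAIR arrays, a difference of -0.32 (limma adjusted p = 0.753). PCNA, the sliding clamp of replication, was 4.73 to 4.93 on the EV arrays and 4.57 to 4.65 on the HOTAIR arrays, a difference of -0.22 (limma adjusted p = 0.896). MKI67, the gene of the proliferation marker Ki-67, differed by -0.015. RBL1, PCNA, FBXO4, SKP2, MYC, JUN, E2F1, CCNE1, CDKN1A and MKI67 were named here after their values were seen.

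**Figure D4:**
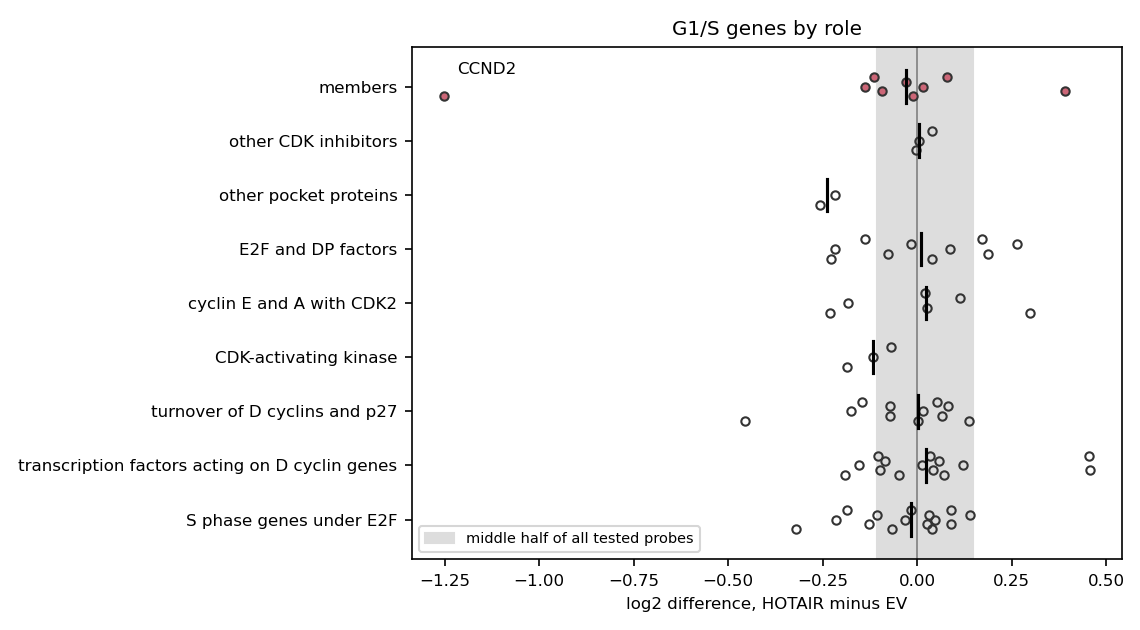
Log2 difference, HOTAIR minus EV, of the 9 tested member genes (filled points) and of the 64 tested genes of the 8 pathway lists (open points), with a vertical bar at the median of each row. The grey band spans the interquartile range of all tested probes, -0.11 to 0.15. CCND2 at -1.25, chosen on this contrast, is the point farthest from it.

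None of the neighbours of CCND2 on chromosome 12 was called. Of 14 probes within 500 kb of the CCND2 probe, 5 were well above background on all 7 arrays and 7 on none, the latter including those of FGF23, FGF6 and AKAP3. The 5 tested probes differed by -0.39 to 0.15, none was called, and in none were the groups apart. C12orf5, now TIGAR, differed by 0.15, C12orf4 by -0.12, RAD51AP1 by -0.39 and PARP11 by -0.26, all with a limma adjusted p of at least 0.966. An unnamed minus-strand probe from 4218740 to 4218799, which could not be tested because it was above background on 3 of 4 EV arrays and no HOTAIR array, read -5.19, -5.65, -4.74 and -4.05 on the EV arrays and -6.63, -6.43 and -5.28 on the HOTAIR arrays. Its groups overlapped (exact permutation p = 0.114, two-sided), and it was singled out after its values were seen.

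Most probes around the INK4 genes on chromosome 9 were not well above background. Of 24 probes within 500 kb of the CDKN2A and CDKN2B probes, 19 were well above background on no array, among them those of MTAP, C9orf53, the antisense RNA CDKN2BAS and IFNE. Most of the 24 were probes of long intergenic non-coding RNAs. Of all probes, 48.7% to 52.1% were well above background on an array, and the share above it on no array was not counted. LOC729983 and DMRTA1 were above background on all 7 arrays. None of the 3 tested probes was called, and in none were the groups apart. Whether DNA is missing at this locus was not tested.

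The genes whose profile over the 7 arrays was most like that of CCND2 were SLC1A1 (Pearson r = 0.990), ZNF789 (r = 0.984), ACSL5 (r = 0.983), ATP8A2 (r = 0.981) and DDX10 (r = 0.980). These values are descriptions over 7 arrays that share the split between the groups, and 26 of 20418 probes had an r above 0.95. All 5 genes were lower on every HOTAIR array than on any EV array, beside 3.5% of all tested probes. This follows largely from their choice by likeness to CCND2, whose groups do not overlap. SLC1A1, a glutamate transporter, was -0.29 to -0.06 on the EV arrays and -1.27 to -0.75 on the HOTAIR arrays. ACSL5, a fatty acid activating enzyme, was -1.33 to -1.17 on the EV arrays and -2.20 to -2.08 on the HOTAIR arrays. Among the members, the correlation with CCND2 was 0.60 for RB1 and -0.69 for CCND3, and it lay between -0.25 and 0.51 for the others.

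**Figure D5:**
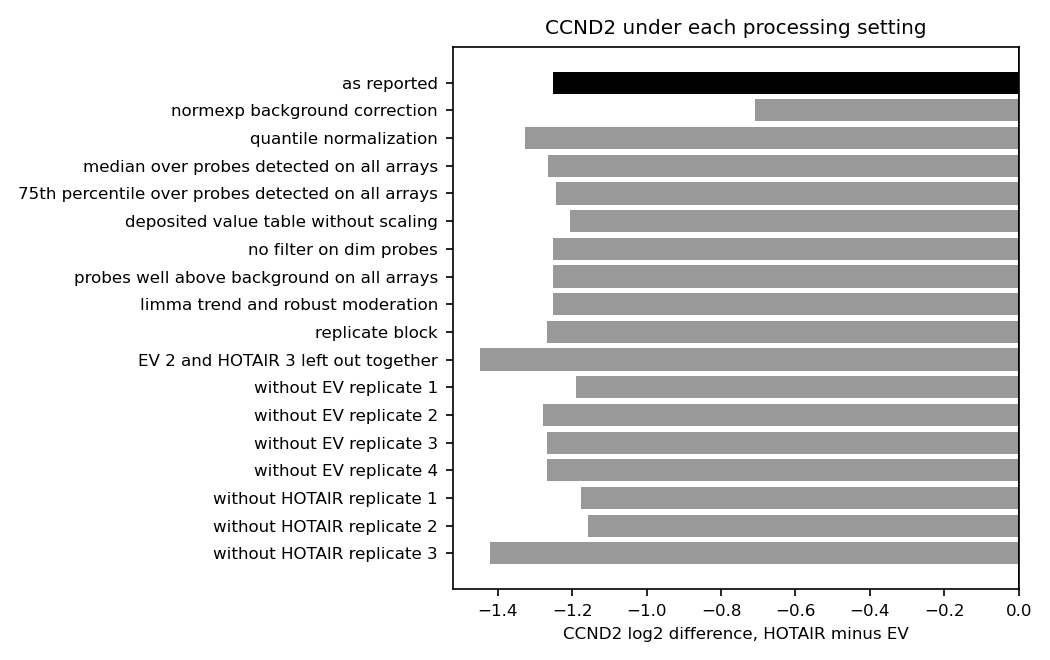
Log2 difference of CCND2, HOTAIR minus EV, as reported (black bar) and under each other processing setting or with arrays left out (grey bars), on an axis that ends at 0. The value, a description on the contrast that chose CCND2, lies between -1.45 and -1.16 except under normexp background correction, where it is -0.71.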

How the data were processed

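Gene expression of ACHN cells was measured on SurePrint G3 Human GE arrays from Agilent, with 1 colour, 4 for EV and 3 for HOTAIR. The members and gene lists were chosen with earlier results of these data known. The authors read the scans with Feature Extraction 10.7.3.1 and deposited, for every spot, a processed intensity that is background-subtracted and detrended. They also deposited a table of 62969 rows, all of whose 440783 cells lay within 0.6% of those intensities, so it is linear and unscaled, with array medians of 18.6 to 28.3. This processing replaces very low signals by values of the software's error model, which limits dim probes such as CDKN2B. The number of arrays limits the precision.

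In R 4.3.3, log2 processed intensity minus the 75th percentile of each array was used. Between 408 and 600 outlier spots per array were left out and spots of a probe were averaged. Probes well above background on all arrays of at least 1 group were tested with limma 3.58.1 (lmFit, eBayes) over 20419 probes with Benjamini-Hochberg adjustment at 0.05. The brightest tested probe stands for a gene in counts. The smallest two-sided p of the exact permutation test over 35 splits is 0.0286. The comparison was tested on simulated data. A further marker gene and the remaining probe sequences are not reported here. The rank product named in the study's methods was not run.

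Named genes were all members, the gene of largest difference in each pathway list and those past the adjusted p, genes within 500 kb of CCND2, CDKN2A and CDKN2B, the 5 most like CCND2, and HOTAIR. The alternatives tried were quantile normalization, normexp background correction (offset 50), 2 other scalings, the deposited table, 2 other filters, trend and robust moderation, the replicate block, the Mann-Whitney U test and arrays left out.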

Additional observations from a re-analysis of the deposited data

Results flagged for a closer look

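CCND1 on EV 2 lay far from the other EV arrays, at 0.024 against 1.10 for the nearest, a gap that took 0.984 of the range of the group. CCND2 on EV 1 was the highest of its group, with a gap of 0.856 of the range, which is short (-2.28 to -2.01). Of 12 EV groups examined, 2 had such a gap. Chance would give 0.6 if the 12 were independent, but they share the same EV arrays. The share of all tested probes with such a gap was not counted, so no excess can be read from this. Without EV 2 the CCND1 difference was -0.19, and without EV 1 the CCND2 difference was -1.19.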

How the results depend on the processing

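The number of probes called, 34 as reported, was 12 with normexp background correction, 14 with no filter on dim probes, 22 with a filter on all arrays, 20 with trend and robust moderation, 9 to 30 with 1 array left out (9 without EV 1), and between 25 and 36 in the other limma settings. It was 0 with the replicate block (1073 at an unadjusted p under 0.05) and 0 with the Mann-Whitney test (0 unadjusted), whose smallest p is 0.0571 here. EV 4 has no HOTAIR array of its number, so it carried no weight in the block. The block differences therefore equal those without EV 4, such as -1.27 for CCND2. Same-numbered samples correlated at 0.39, -0.37 and -0.41 in their deviations from the group means. So few pairs neither show nor exclude a pairing by number. The share of calls that were higher was 79.4% as reported, 92% in the deposited table and 96.4% without EV 2 and HOTAIR 3. The lowest shares were 75% with quantile normalization and 72.7% with a filter on all arrays. That filter leaves out probes tested only through 1 group, such as HOTAIR and CR2 (both higher) and ST8SIA1 (lower). No call was lower without EV 1, EV 3, EV 4, HOTAIR 1 or HOTAIR 2. The members called were 0 in place of 1 under normexp, the deposited table, no filter, trend and robust moderation, the replicate block and the Mann-Whitney test, and 0 to 1 with 1 array left out (1 only without HOTAIR 3); the cause was not tested. CCND2 kept its sign throughout, at -0.71 with normexp. With arrays left out its sign was fixed beforehand, since its groups do not overlap. Differences near 0 changed sign: CDK4 to -0.029 (normexp), -0.014 (quantile) and -0.00057 (block), CDK6 to 0.032 (deposited table) and 0.030 (block), CDKN1B to 0.013 (deposited table) and 0.035 (EV 2 and HOTAIR 3 left out), and CCND1 to -0.011 (both left out). With 1 array left out, CCND1 ranged from -0.19 to 0.26, CDK4 from -0.087 to 0.19, CDK6 from -0.056 to 0.054, CDKN1B from -0.12 to 0.012 and CDKN2A from -0.49 to 0.067. No other member passed in 137 pairs of gene and setting (smallest adjusted p 0.522), nor any pathway gene.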
